A study of Rattus norvegicus with 16 samples.

Results

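Voltage-gated potassium channel alpha subunits are the proteins that form the pore and the voltage sensor of the channels that repolarize neurons. They were taken as every gene of the platform annotation whose symbol begins with Kcna, Kcnb, Kcnc, Kcnd, Kcnf, Kcng, Kcnh, Kcnq, Kcns or Kcnv and ends in a number. The rule used names alone and no measured value. It found 36 of the 15037 genes measured, each with 1 probe, as 8 Kv1 genes (Kcna1 to Kcna7 without gaps, and Kcna10), 1 Kv2 gene (Kcnb2), 3 Kv3 genes (Kcnc1, Kcnc2 and Kcnc4) and 3 Kv4 genes (Kcnd1, Kcnd2 and Kcnd3). The others were 3 Kv7 genes (Kcnq1, Kcnq3 and Kcnq5), 8 genes of the EAG, ERG and ELK channels (Kcnh1 to Kcnh8) and 10 modifier subunits (Kcnf1, Kcng1 to Kcng4, Kcns1 to Kcns3, Kcnv1 and Kcnv2).

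The values come from 16 Affymetrix arrays, 1 for each pairing of 4 brain regions with 4 treatments of male Wistar rats, 8 to 10 weeks old. The regions, cut by laser from Nissl-stained frozen sections, were both parts of the habenula, lateral (LHb) and medial (MHb), and 2 nuclei of the hindbrain. The latter were the solitary nucleus, which receives visceral afferents (Sol), and the medial nucleus of the vestibular complex (MVe). For 60 minutes the rats received sevoflurane, an inhaled anesthetic, at 2.4%, O2 alone as its control, the intravenous anesthetic propofol (10 mg/kg as a bolus, then 36 mg/kg per hour), or Intralipos, a 10% lipid emulsion at the same rates that serves as the vehicle of propofol. All rats breathed 40% oxygen at 6 L/min.

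Alpha subunits assemble as a ring around a central pore, mostly with members of their own family, so the genes a neuron transcribes set which currents it can build. Kv1 channels open near threshold and sit along axons, Kv3 channels open and close fast enough for high firing rates, and Kv4 channels carry the transient A-type current of the soma and dendrites. Kv7 channels carry the slow M-current, EAG, ERG and ELK channels form the Kcnh family, and modifier subunits make no current alone but change that of Kv2 channels. In the medial habenula, cholinergic and peptidergic neurons fire tonically, and vestibular neurons are known for sustained fast firing.

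Every value below is a log2 signal or a difference of log2 signals, so a difference of 1 stands for a doubling. Because each pairing of region and treatment had 1 array, the 4 treatments stood in for replicates of a region (mean ± SD, n = 4) and the 4 regions did the same for a treatment. Differences are given as fitted value ± moderated standard error from limma. Their p-values were adjusted over all 15037 genes, with a threshold of 0.05, and measure only the spread between these arrays. The labels do not tie arrays to single rats, so the p-values may be too small. The 23 background control probes of the array, which differ in GC content, averaged 3.03 to 6.50 over the arrays (median of all their values 5.85), and no detection calls were used here. Where one side of a difference lay in that range, its signal is not shown to be above background, the difference may understate a change, and no fold is given. In tissue RNA, fewer cells of a type and less RNA per cell cannot be told apart. The sevoflurane and O2 arrays had a mean over all probes of 7.20 to 7.21 and the propofol and Intralipos arrays a mean of 6.97 to 6.99, so each set appears to have had its own normalization. Array values are listed in the order sevoflurane, O2, propofol and Intralipos throughout, so the first pair of values and the second pair come from different sets.

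The regions were checked against marker genes. Of 11 medial habenula markers, 10 were higher in MHb than in LHb. Of 7 solitary nucleus markers, 6 were higher in Sol than in MVe, and of 9 markers of vestibular and large hindbrain neurons, 8 were higher in MVe. The calls of the 6 lateral habenula markers did not separate LHb from MHb, with 3 higher and 3 lower in LHb. Their mean signal was 11.24 to 11.81 over the LHb arrays and 10.62 to 10.93 over the MHb arrays, without overlap. It was 8.36 to 8.86 over the hindbrain arrays. The mean of the medial habenula markers was 14.92 to 15.24 in MHb. In LHb it was 10.88 to 11.89, also above the hindbrain arrays at 6.46 to 8.64.

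The channel genes differed between regions. A moderated F test over the 4 regions called 26 of the 36 genes (72.2%), beside 54.1% of all genes, and 27 had an unadjusted p under 0.05, beside 58.1%. Every Kv2 and Kv3 gene was called, as were 5 of 8 Kv1, 2 of 3 Kv4, 2 of 3 Kv7, 6 of 8 Kcnh and 7 of 10 modifier genes. The means of a called gene spanned 0.65 to 7.55 between its highest and lowest region. Dim genes, which stayed below 6.86, the median of all gene values, on every array, numbered 13, and differences between such signals are open to background. A gene with brighter signals that was not called was Kcna3, a Kv1 subunit also known from lymphocytes and microglia, at 8.82 ± 0.43 (LHb), 8.74 ± 0.57 (MHb), 8.84 ± 0.39 (Sol) and 8.91 ± 0.26 (MVe). Its adjusted p was 0.8202 in the F test.

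Some genes had a region that stood apart from all the others. All 4 MHb arrays lay above every other array for 7 genes (Kcnb2, Kcnd2, Kcnd3, Kcng4, Kcnh5, Kcnh8 and Kcns2), beside 6.03% of all genes. All 4 MVe arrays did so for 6 (Kcna1, Kcna4, Kcnc1, Kcnc4, Kcnh2 and Kcns3), beside 4.44%, and all 4 Sol arrays for 3 (Kcna5, Kcng3 and Kcnq5), beside 4.97%. LHb did so for none, beside 0.831%. The rule pools both array sets, so an offset between the sets can hide a separation. Within each set taken alone, both LHb arrays lay above all others for Kcnh1. The lowest LHb and highest other array read 8.7514 and 8.5188 in the sevoflurane set, and 7.9009 and 7.5447 in the propofol set. The same held for Kcnh6 in MHb, Kcnc2 in MVe and Kcnq3 in Sol. Shares of all genes within sets were not counted. At the lower end, all 4 MHb arrays lay below every other array for 5 genes (Kcna4, Kcnc1, Kcnc2, Kcnc4 and Kcnq3), beside 6.04% of all genes, and all 4 MVe arrays for 5 (Kcnb2, Kcnd3, Kcnh1, Kcnh5 and Kcnh8), beside 4.36%. Sol was clearly lowest for Kcna1 and Kcna2, beside 2.32%, and LHb for Kcng4, beside 0.419%.

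**Figure D1:**
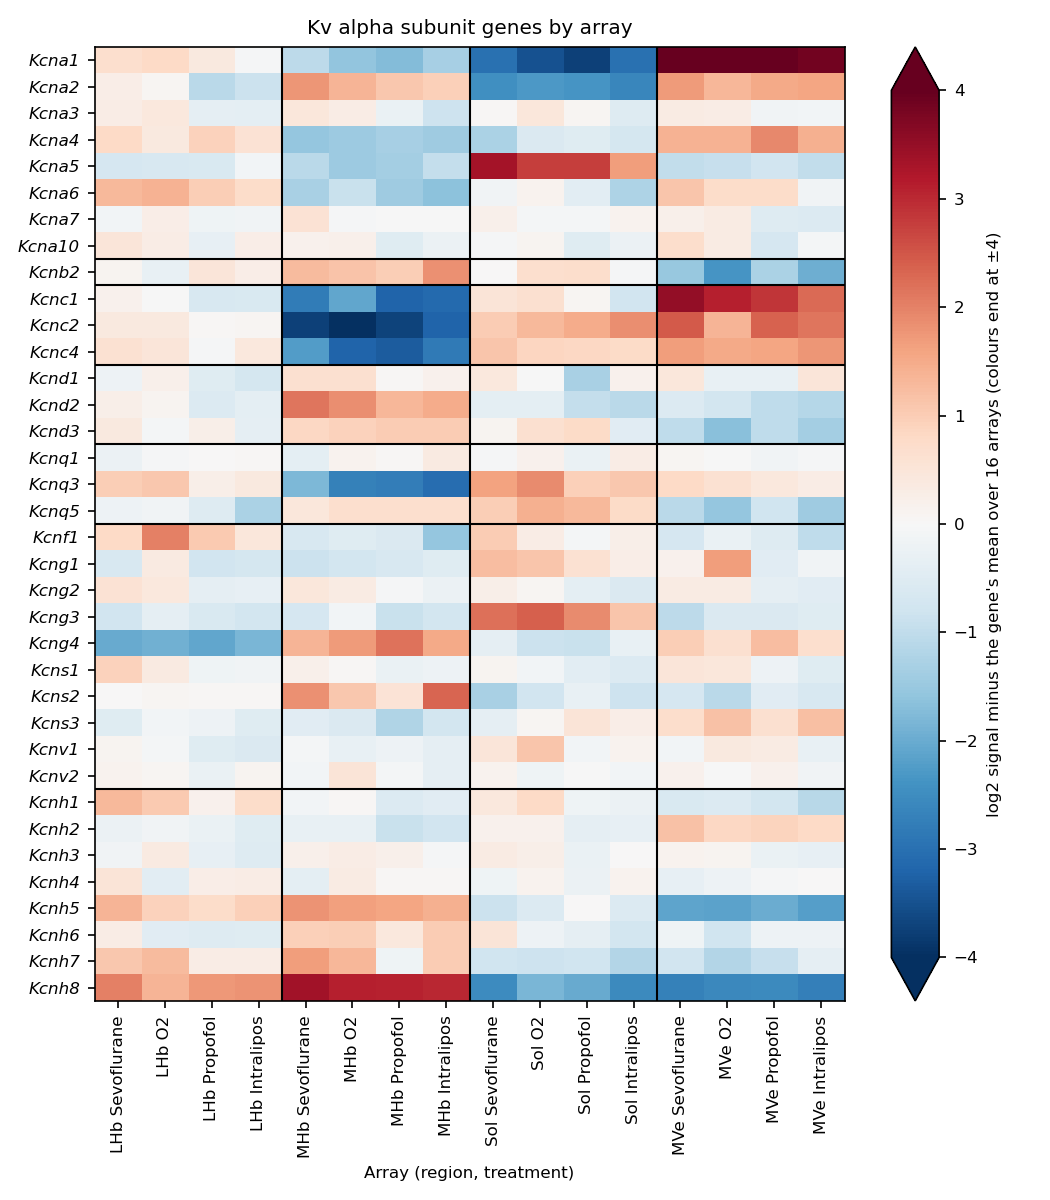
Region profile of the 36 channel genes. Each row is a gene, grouped by family, each column is 1 of the 16 arrays, and the colour gives the log2 signal minus the gene's mean over the 16 arrays, cut off at 4 on both sides. The 3 Kv3 genes are above their means in MVe and below them in MHb, and Kcnh5, Kcnh8 and Kcnd2 are highest in MHb.

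Between the parts of the habenula, 20 of the 36 genes (55.6%) differed, beside 28.5% of all genes. An unadjusted p under 0.05 was found for 23, beside 36.8%. The calls split evenly, with 10 higher in LHb and 10 higher in MHb, beside 14.1% and 14.4% of all genes (12.1% and 19.4% with each array centred on its median, where the channel genes split 9 to 12). The genes higher in LHb were all 3 Kv3 genes, 4 Kv1 genes (Kcna1, Kcna4, Kcna5 and Kcna6), Kcnq3, Kcnf1 and Kcnh1. Those higher in MHb were Kcnd2 and Kcnd3 of the A-type channels, Kcnb2, Kcna2, Kcnq5, Kcng4, Kcns2, Kcnh5, Kcnh6 and Kcnh8. The median absolute difference was 0.80 for the channel genes and 0.26 for all genes. Glial markers moved in the same contrast. Of 9 astrocyte markers, 8 were higher in LHb and 1 lower, with a list mean of 13.78 to 14.11 in LHb and 11.05 to 11.53 in MHb, and 9 of 10 oligodendrocyte markers were higher in LHb, at 13.70 to 14.23 against 11.96 to 12.62. Endothelial markers were higher in LHb for 6 of 7, at 8.33 to 8.84 against 7.25 to 7.69, and microglia markers for 4 of 8, at 7.13 to 8.01 against 6.52 to 7.34. Choroid plexus and ependyma markers were higher in MHb for 7 of 11 and lower for 2, at 8.52 to 8.84 against 6.68 to 6.92 in LHb. Neuron markers were called in LHb as 5 higher and 4 lower of 13. The part of these markers in the channel differences was not tested.

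Between the hindbrain nuclei, 19 of the 36 genes (52.8%) differed, beside 35.2% of all genes, with 9 higher and 10 lower in Sol, beside 19.3% and 16% of all genes (14.8% and 23.3% with median centring, where the channel genes split 9 to 11). An unadjusted p under 0.05 was found for 20 genes, beside 42.7%. Higher in Sol were Kcna5, Kcng3, Kcnq3, Kcnq5, Kcnb2, Kcnd3, Kcnf1, Kcnh1 and Kcnh5. Higher in MVe were Kcna1, Kcna2, Kcna4, Kcna6, the 3 Kv3 genes, Kcng4, Kcns3 and Kcnh2. The median absolute difference was 0.70, beside 0.31 for all genes. Neuron markers also differed, with 9 of 13 higher in MVe and 1 higher in Sol, and a list mean of 14.19 to 14.51 in MVe and 12.73 to 12.97 in Sol. Oligodendrocyte markers were higher in MVe for 9 of 10, at 13.17 to 13.79 against 10.73 to 11.03, and choroid plexus and ependyma markers for 9 of 11, at 8.55 to 9.94 against 6.18 to 8.10. Endothelial markers were higher in MVe for 6 of 7, at 8.74 to 9.47 against 7.95 to 8.55. Microglia markers were higher in Sol for 8 of 8, at 7.79 to 9.08 against 6.39 to 7.18, and astrocyte markers for 6 of 9 and lower for 2, at 14.60 to 14.85 against 13.91 to 14.34. The part of these markers in the channel differences was not tested.

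Averaged over both nuclei of each area, the habenula and the hindbrain differed in 22 of the 36 genes (61.1%), beside 38.1% of all genes. Higher in the habenula were 10 genes, beside 18.3% of all genes, with 5 of the 8 Kcnh genes among them, and 12 were higher in the hindbrain, beside 19.8%, with all 3 Kv3 genes among them. With median centring the shares of all genes were 22.8% and 16.7%, and the channel genes split 11 to 12. These are averages, and not every gene differed in both nuclei of an area. Of the 10, Kcna2 had its highest mean in MVe. The mean of Kcnh1 was higher in Sol than in MHb (7.92 and 7.45). The Sol means of Kcnh6 (5.03), Kcnb2 (8.58) and Kcnd3 (9.05) lay above those of LHb (4.94, 8.38 and 8.84). The arrays of each of these pairs overlapped, and the pairs were not tested. Of the 12, Kcna5 and Kcng3 were high in Sol alone, and Kcna1, Kcna4 and Kcnq3 had a hindbrain nucleus with a mean below that of LHb. For Kcnq3 the arrays of that nucleus, MVe, overlapped those of LHb. An unadjusted p under 0.05 was found for 22, beside 44.4%. The median absolute difference was 0.81, beside 0.23 for all genes. Neuron markers were higher in the hindbrain for 8 of 13 and higher in the habenula for 4. Oligodendrocyte markers were higher in the habenula for 8 of 10 and astrocyte markers higher in the hindbrain for 8 of 9 and lower for 1. Endothelial markers were higher in the hindbrain for 5 of 7 and microglia markers for 4 of 8, and choroid plexus and ependyma markers were higher in the habenula for 3 of 11 and in the hindbrain for 5. The part of these markers in the channel differences was not tested.

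**Figure D2:**
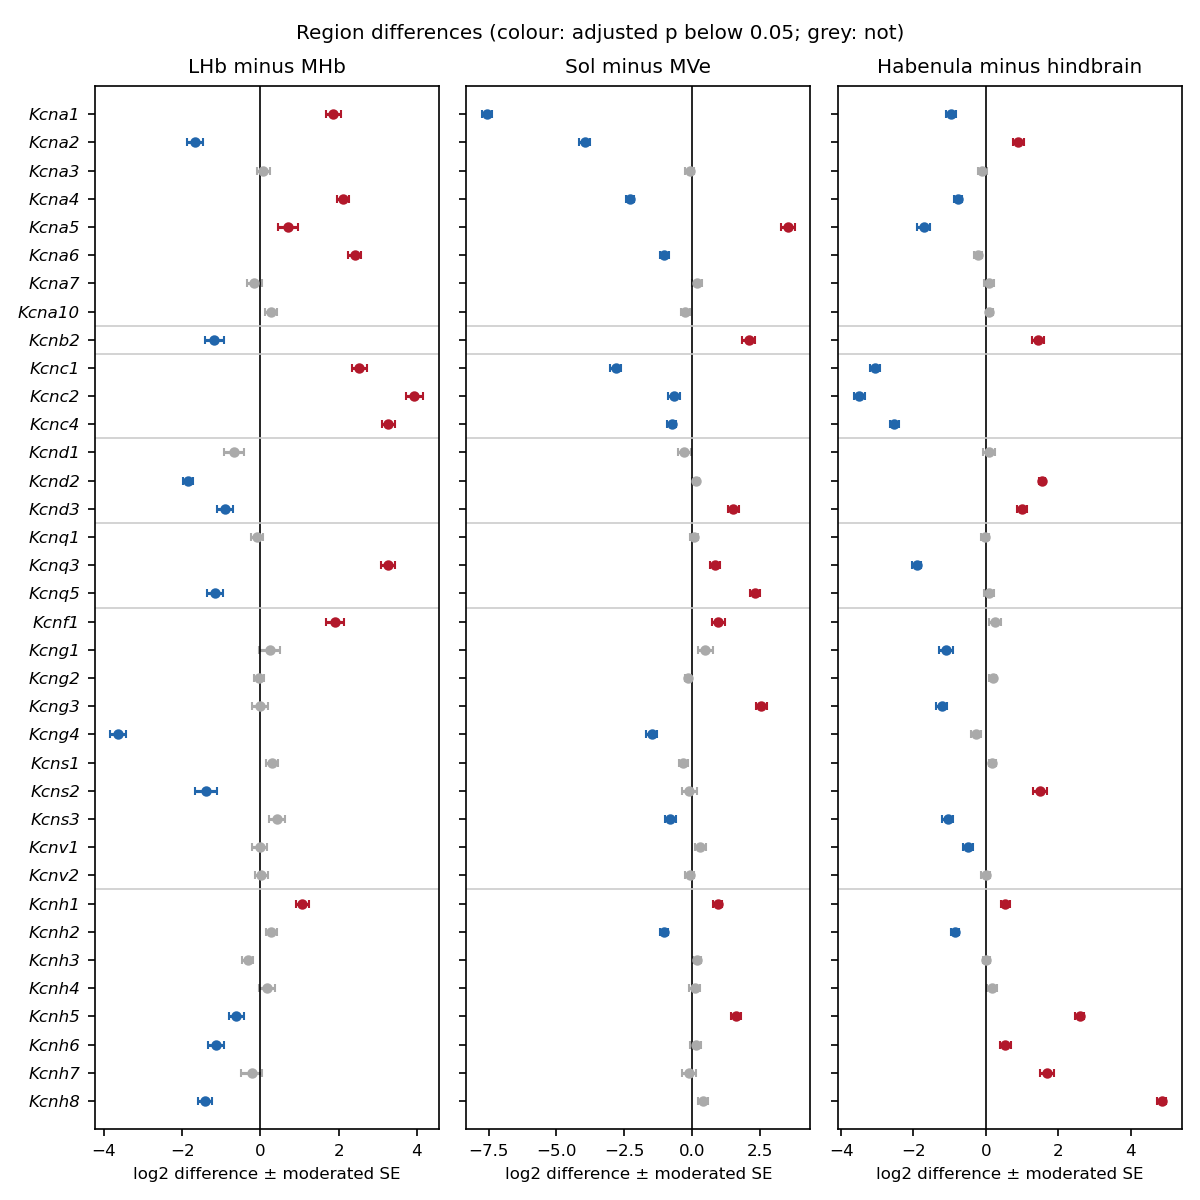
Fitted log2 differences between regions for the 36 channel genes, with moderated standard errors as bars, for LHb minus MHb, Sol minus MVe and habenula minus hindbrain. Red (above 0) and blue (below 0) points passed an adjusted p of 0.05, grey points did not, and each panel has its own horizontal scale. Kcna1 in Sol minus MVe lies farthest from 0, at -7.55, and the 3 Kv3 genes lie to the right in the first contrast and to the left in the other 2.

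Kv1 genes encode low-threshold channels of axons, and Kcna1 (Kv1.1) had the widest regional range of the 36. Its signals were 10.95, 11.08, 10.67 and 10.25 in LHb, 9.25, 8.72, 8.56 and 8.97 in MHb, 7.31, 6.81, 6.55 and 7.30 in Sol, and 15.05, 14.48, 14.50 and 14.15 in MVe. The regions did not overlap in any pair, MVe being the highest and Sol the lowest, and Sol minus MVe was -7.55 ± 0.19, a 188-fold lower signal in Sol (adjusted p = 5.5e-15). LHb exceeded MHb by 1.87 ± 0.19 (adjusted p = 4.5e-07). Habenula minus hindbrain was -0.96 ± 0.14 (adjusted p = 1.5e-05), an average over a hindbrain pair that lay on both sides of the habenula. Kcna2 (Kv1.2), the usual partner of Kcna1 in axonal channels, read 11.39, 11.21, 10.06 and 10.27 in LHb, 12.87, 12.48, 12.20 and 12.08 in MHb, 8.67, 8.81, 8.76 and 8.53 in Sol, and 12.81, 12.46, 12.64 and 12.69 in MVe. MHb and MVe overlapped at the top, LHb lay below them and Sol was lowest. Sol was 15.5-fold lower than MVe (-3.96 ± 0.21, adjusted p = 5.8e-11), and LHb minus MHb was -1.68 ± 0.21 (adjusted p = 4.2e-06). So both axonal subunits were lowest in Sol, while their order within the habenula was opposite.

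Kcna4 (Kv1.4), the fast-inactivating Kv1 subunit, read 10.45, 10.03, 10.56 and 10.22 in LHb, 8.09, 8.20, 8.32 and 8.22 in MHb, 8.40, 9.07, 9.17 and 8.93 in Sol, and 11.03, 11.04, 11.57 and 11.08 in MVe. MVe was highest and MHb lowest with no overlap, and the differences were 2.11 ± 0.16 for LHb minus MHb, -2.29 ± 0.16 for Sol minus MVe and -0.78 ± 0.11 for habenula minus hindbrain (adjusted p = 7.1e-09, 2.8e-09 and 2.0e-05). Kcna6 (Kv1.6), another neuronal Kv1 subunit, had signals of 10.16, 10.27, 9.86 and 9.61 in LHb, 7.58, 7.97, 7.45 and 7.23 in MHb, 8.73, 9.02, 8.46 and 7.65 in Sol, and 9.98, 9.62, 9.62 and 8.74 in MVe. LHb and MVe overlapped at the top, Sol overlapped MVe, and MHb was lowest apart from 1 Sol array within its range. The fit gave LHb minus MHb at 2.42 ± 0.17 (adjusted p = 1.9e-09) and Sol minus MVe at -1.02 ± 0.17 (adjusted p = 8.3e-05). The habenula minus hindbrain difference was -0.21 ± 0.12 and was not called (adjusted p = 0.1781).

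Kcna5 (Kv1.5), best known for the atrial repolarizing current, was a Sol gene in this set. Its signals were 4.19, 4.20, 4.23 and 4.74 in LHb, 3.78, 3.38, 3.50 and 3.89 in MHb, 8.17, 7.63, 7.60 and 6.53 in Sol, and 3.88, 3.93, 4.08 and 3.85 in MVe. Only Sol rose above the median of all gene values, and on 3 of its 4 arrays. Sol exceeded MVe, whose signals lay in the range of the background control probes, by 3.54 ± 0.25 (adjusted p = 3.5e-09), and habenula minus hindbrain was -1.72 ± 0.18 (adjusted p = 3.0e-07). The smaller LHb minus MHb difference, 0.70 ± 0.25 (adjusted p = 0.0446), lay between dim signals. That call was lost without the Intralipos array of LHb (0.48, adjusted p = 0.2087). It was also lost without the O2 or propofol array of LHb, the sevoflurane, O2 or propofol array of MHb, the propofol array of Sol, or the O2, propofol or Intralipos array of MVe, with adjusted p between 0.0508 and 0.1355. Kcna7 and Kcna10, Kv1 subunits known mainly outside the brain, stayed dim and were not called in any region comparison. Their means were 4.05 ± 0.21 (LHb), 4.21 ± 0.30 (MHb), 4.13 ± 0.15 (Sol) and 3.95 ± 0.47 (MVe) for Kcna7, and 5.23 ± 0.35 (LHb), 4.96 ± 0.34 (MHb), 4.87 ± 0.26 (Sol) and 5.11 ± 0.59 (MVe) for Kcna10. The Kcna10 arrays read 5.52, 5.34, 4.72 and 5.32 in LHb, 5.22, 5.24, 4.55 and 4.82 in MHb, 4.98, 5.15, 4.54 and 4.81 in Sol, and 5.75, 5.36, 4.37 and 4.95 in MVe, with all regions overlapping.

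Kcna genes lie in tandem in the rat genome. In the RefSeq annotation of GRCr8, Kcna5, Kcna1 and Kcna6 follow each other on chromosome 4 with 0 protein-coding genes between them, and so do Kcna3, Kcna2 and Kcna10 on chromosome 2. Kcna1 was lowest in Sol, the region where the adjacent Kcna5 was highest, and Kcna6 was highest in LHb. Kcna1 and Kcna6 were both higher in LHb than in MHb and in MVe than in Sol. Kcna2 spanned 3.96 between its region means, while Kcna3 next to it spanned 0.17 and was not called, nor was Kcna10.

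**Figure D3:**
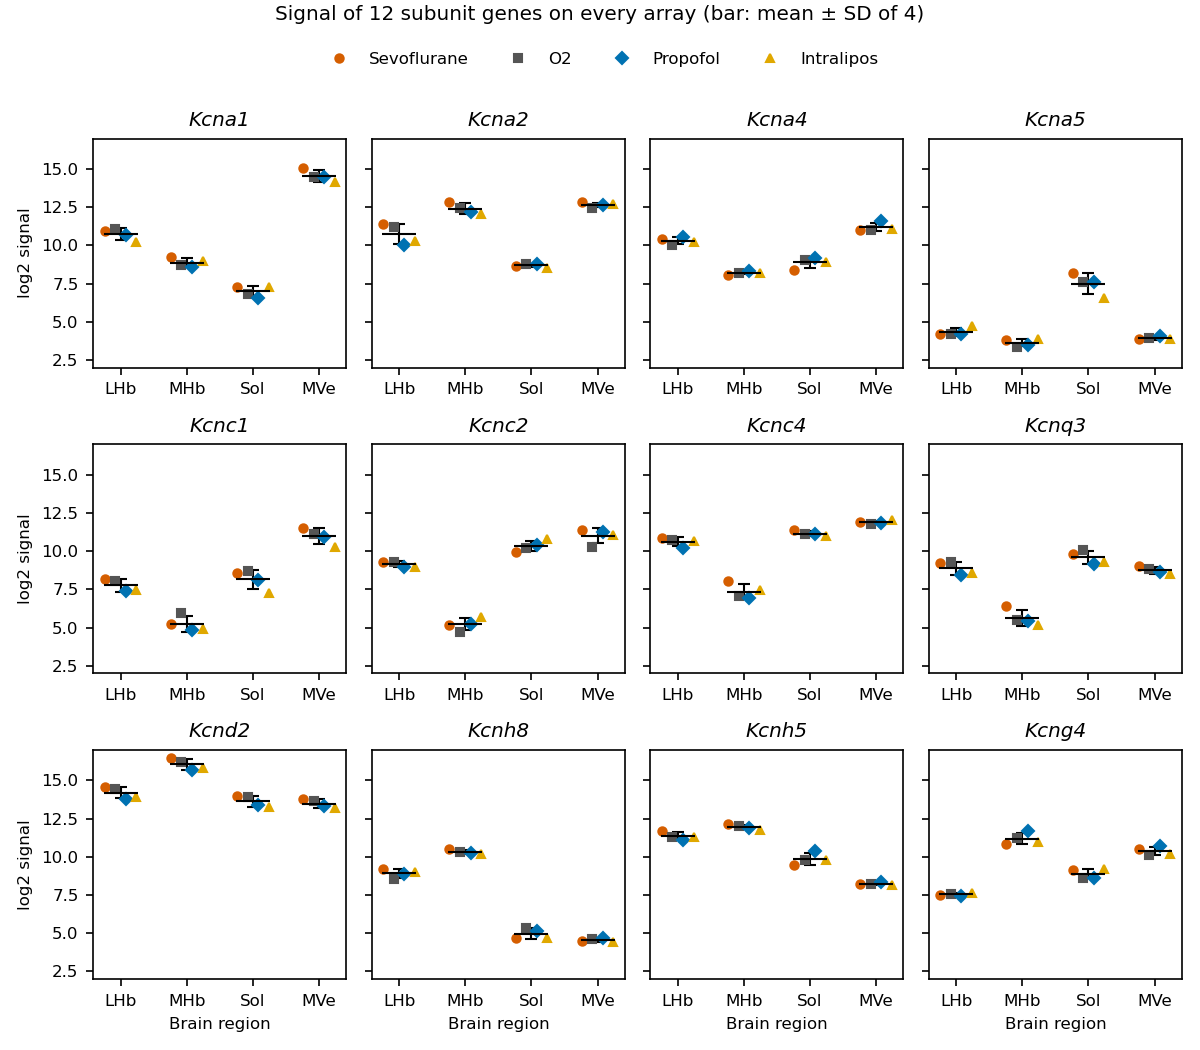
Signals of 12 channel genes by array. Each panel is a gene, the vertical axis is the log2 signal, the 4 points of a region are its 4 treatments and the bar is the mean ± SD. Kcna1 falls into 4 separate levels, the Kv3 genes rise from MHb to MVe, and Kcnh5 and Kcnh8 fall from MHb to MVe.

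Kv3 genes encode the high-threshold channels of fast-firing neurons, and all 3 shared the order MVe, Sol, LHb and MHb from high to low. Kcnc1 (Kv3.1) read 8.20, 8.02, 7.38 and 7.43 in LHb, 5.22, 5.96, 4.83 and 4.92 in MHb, 8.56, 8.68, 8.11 and 7.26 in Sol, and 11.54, 11.13, 10.89 and 10.30 in MVe. MVe stood above and MHb below every other array, and LHb and Sol overlapped. LHb exceeded MHb, which lay in the background range, by 2.52 ± 0.19, and MVe exceeded Sol 7.03-fold (-2.81 ± 0.19), with adjusted p = 6.3e-09 and 1.8e-09. Kcnc2 (Kv3.2) had signals of 9.31, 9.31, 8.96 and 8.99 in LHb, 5.17, 4.73, 5.21 and 5.71 in MHb, 9.95, 10.21, 10.41 and 10.78 in Sol, and 11.37, 10.30, 11.27 and 11.07 in MVe. MHb lay far below the other regions, and the Sol and MVe ranges overlapped. LHb minus MHb was 3.93 ± 0.22 (adjusted p = 1.1e-10), with MHb again in the background range. Sol minus MVe was -0.66 ± 0.22 (adjusted p = 0.0247), a call that was lost without the sevoflurane array of Sol (adjusted p = 0.1240), the sevoflurane array of MVe (0.1102) or the propofol array of MVe (0.0894). Kcnc4 (Kv3.4), which inactivates fast, read 10.86, 10.73, 10.21 and 10.68 in LHb, 8.02, 7.05, 6.93 and 7.43 in MHb, 11.37, 11.12, 11.09 and 11.01 in Sol, and 11.92, 11.77, 11.84 and 12.01 in MVe. Again MHb was lowest and MVe highest without overlap, with LHb minus MHb at 3.26 ± 0.17 (adjusted p = 4.1e-11) and Sol minus MVe at -0.74 ± 0.17 (adjusted p = 0.0020). Against the hindbrain, the habenula was at -3.07 ± 0.13 for Kcnc1, -3.50 ± 0.15 for Kcnc2 and -2.53 ± 0.12 for Kcnc4, a 5.77-fold lower signal of the last, with adjusted p between 2.1e-12 and 5.9e-12.

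Kcnb2 (Kv2.2), a delayed rectifier of the soma, ran in another order. Its signals were 8.35, 7.94, 8.73 and 8.51 in LHb, 9.51, 9.40, 9.25 and 10.09 in MHb, 8.27, 8.91, 8.94 and 8.19 in Sol, and 6.73, 5.90, 7.0 and 6.30 in MVe. MHb was highest and MVe lowest, each without overlap, while LHb and Sol overlapped. Sol exceeded MVe by 2.10 ± 0.24 (adjusted p = 1.7e-06), LHb minus MHb was -1.18 ± 0.24 (adjusted p = 9.8e-04), and habenula minus hindbrain was 1.44 ± 0.17 (adjusted p = 1.8e-06). The MVe mean, 6.48, lay at the top of the background range.

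Kv4 genes carry the A-type current, and Kcnd2 (Kv4.2) was highest in MHb. Its signals were 14.57, 14.46, 13.81 and 13.95 in LHb, 16.50, 16.20, 15.67 and 15.84 in MHb, 13.97, 13.95, 13.39 and 13.27 in Sol, and 13.81, 13.63, 13.32 and 13.22 in MVe. The MHb range did not touch that of any other region, and Sol and MVe overlapped. LHb minus MHb was -1.85 ± 0.13, 3.61-fold lower in LHb (adjusted p = 2.7e-09), and habenula minus hindbrain was 1.56 ± 0.09 (adjusted p = 1.4e-10). Sol minus MVe was 0.15 ± 0.13 and was not called (adjusted p = 0.4221). Kcnd3 (Kv4.3) read 9.18, 8.71, 9.02 and 8.44 in LHb, 9.62, 9.72, 9.81 and 9.82 in MHb, 8.88, 9.42, 9.57 and 8.34 in Sol, and 7.77, 7.10, 7.78 and 7.44 in MVe. MHb was again highest, MVe was lowest, and LHb and Sol overlapped. Sol exceeded MVe by 1.53 ± 0.21 (adjusted p = 1.2e-05), LHb minus MHb was -0.91 ± 0.21 (adjusted p = 0.0026) and habenula minus hindbrain was 1.00 ± 0.15 (adjusted p = 2.3e-05). Kcnd1 (Kv4.1) stayed dim at 5.81, 6.22, 5.53 and 5.31 in LHb, 6.65, 6.66, 6.06 and 6.18 in MHb, 6.44, 6.00, 4.70 and 6.16 in Sol, and 6.46, 5.71, 5.72 and 6.50 in MVe. Its regions overlapped and the F test gave an adjusted p of 0.1020, which became 0.0348 without the O2 array of MVe. Its LHb minus MHb difference, -0.67 ± 0.25 (adjusted p = 0.0502), was called when any of 7 arrays was left out, with adjusted p between 0.0221 and 0.0487. These were the O2 and propofol arrays of LHb, the Intralipos array of MHb, the propofol and Intralipos arrays of Sol, and the O2 and Intralipos arrays of MVe.

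Of the Kv7 genes, Kcnq3 (Kv7.3), a subunit of the neuronal M-channel, set MHb apart. Its signals were 9.20, 9.31, 8.46 and 8.60 in LHb, 6.40, 5.51, 5.44 and 5.16 in MHb, 9.83, 10.10, 9.16 and 9.30 in Sol, and 9.0, 8.84, 8.63 and 8.51 in MVe. All MHb arrays lay below all others, and LHb overlapped both hindbrain nuclei, whose ranges did not meet. The overlap of LHb with Sol arose only across the array sets, since within each set the Sol arrays lay above the LHb arrays. LHb exceeded MHb, which lay in the background range, by 3.26 ± 0.18 (adjusted p = 7.7e-11), Sol exceeded MVe by 0.85 ± 0.18 (adjusted p = 8.6e-04), and habenula minus hindbrain was -1.91 ± 0.12 (adjusted p = 5.6e-10). Kcnq5 (Kv7.5), another M-channel subunit, read 8.39, 8.46, 8.08 and 7.34 in LHb, 9.06, 9.27, 9.29 and 9.27 in MHb, 9.58, 10.04, 9.91 and 9.37 in Sol, and 7.54, 7.04, 7.82 and 7.17 in MVe. Sol was highest without overlap, MHb came next, and LHb and MVe overlapped at the bottom. Within the habenula it ran opposite to Kcnq3, with LHb minus MHb at -1.15 ± 0.20 (adjusted p = 2.2e-04), and Sol exceeded MVe by 2.33 ± 0.20 (adjusted p = 4.9e-08). Its habenula minus hindbrain value was 0.09 ± 0.14 (adjusted p = 0.6944), not called. Kcnq1 (Kv7.1), the channel of the cardiac slow delayed rectifier, was dim at 3.36, 3.55, 3.60 and 3.64 in LHb, 3.21, 3.74, 3.63 and 3.96 in MHb, 3.56, 3.75, 3.33 and 3.90 in Sol, and 3.67, 3.56, 3.46 and 3.55 in MVe. Its regions overlapped, and it was not called in any region comparison.

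The Kcnh family held the gene with the largest fitted difference between habenula and hindbrain, Kcnh8 (Kv12.1, an ELK channel). Its signals were 9.21, 8.55, 8.91 and 8.98 in LHb, 10.54, 10.30, 10.28 and 10.21 in MHb, 4.67, 5.36, 5.18 and 4.66 in Sol, and 4.48, 4.61, 4.66 and 4.46 in MVe. Every habenula array lay above every hindbrain array, and MHb lay above LHb. Habenula minus hindbrain was 4.86 ± 0.13 (adjusted p = 1.2e-15), with both hindbrain nuclei in the background range, and LHb minus MHb was -1.42 ± 0.18 (adjusted p = 5.9e-06). Sol minus MVe, 0.41 ± 0.18 between dim signals, was not called (adjusted p = 0.0868), and was called without the sevoflurane array of Sol (0.56, adjusted p = 0.0294). Kcnh5 (Kv10.2, an EAG channel) read 11.71, 11.28, 11.10 and 11.30 in LHb, 12.14, 11.99, 11.92 and 11.78 in MHb, 9.49, 9.81, 10.38 and 9.80 in Sol, and 8.25, 8.22, 8.36 and 8.17 in MVe. The 4 regions followed the same order as for Kcnh8, MHb, LHb, Sol and MVe, and none overlapped. Habenula minus hindbrain was 2.59 ± 0.13, 6.04-fold (adjusted p = 1.1e-11), and Sol exceeded MVe by 1.62 ± 0.18 (adjusted p = 1.1e-06). LHb minus MHb was -0.61 ± 0.18 (adjusted p = 0.0152), a call lost without the sevoflurane array of MHb (adjusted p = 0.0595) or the propofol array of LHb (0.0857).

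Kcnh2 (Kv11.1), the ERG channel of the cardiac rapid delayed rectifier that neurons also use, ran the other way. Its signals were 8.37, 8.48, 8.35 and 8.13 in LHb, 8.32, 8.31, 7.72 and 7.86 in MHb, 8.79, 8.80, 8.24 and 8.28 in Sol, and 9.80, 9.45, 9.51 and 9.42 in MVe. MVe was highest without overlap, Sol minus MVe was -1.02 ± 0.15 (adjusted p = 2.1e-05) and habenula minus hindbrain was -0.85 ± 0.10 (adjusted p = 2.4e-06), while LHb minus MHb, 0.28 ± 0.15, was not called (adjusted p = 0.1814). Kcnh7 (Kv11.3), the ERG channel known mainly from brain, was higher in the habenula by 1.69 ± 0.19 (adjusted p = 9.5e-07). Its arrays read 9.31, 9.48, 8.53 and 8.53 in LHb, 9.88, 9.55, 8.06 and 9.25 in MHb, 7.44, 7.40, 7.42 and 7.05 in Sol, and 7.46, 7.07, 7.32 and 7.87 in MVe. The habenula arrays all exceeded the hindbrain arrays, and neither within-area difference was called. Kcnh6 (Kv11.2) had signals of 5.52, 4.76, 4.72 and 4.74 in LHb, 6.17, 6.20, 5.64 and 6.23 in MHb, 5.75, 5.02, 4.86 and 4.48 in Sol, and 5.07, 4.45, 5.02 and 5.02 in MVe. It was brightest in MHb but stayed below the median of all gene values on every array, with LHb minus MHb at -1.12 ± 0.20 (adjusted p = 3.2e-04) and habenula minus hindbrain at 0.54 ± 0.14 (adjusted p = 0.0061). All 4 region means of Kcnh6 lay in the background range. Kcnh1 (Kv10.1) had region means of 8.52 ± 0.47 (LHb), 7.45 ± 0.27 (MHb), 7.92 ± 0.50 (Sol) and 6.97 ± 0.25 (MVe). It was higher in LHb than in MHb by 1.08 ± 0.17 (adjusted p = 6.0e-05), in Sol than in MVe by 0.96 ± 0.17 (adjusted p = 1.8e-04) and in the habenula than in the hindbrain by 0.54 ± 0.12 (adjusted p = 0.0012). Kcnh3 and Kcnh4, the remaining ELK channels, stayed dim, with region means of 4.46 to 4.78 and 3.64 to 3.95. Neither was called in a region comparison, although Kcnh3 in LHb minus MHb (-0.33 ± 0.15, adjusted p = 0.1176) was called without the O2 array of LHb (adjusted p = 0.0464).

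Modifier subunits form channels with Kv2 subunits, and Kcng4 (Kv6.4) had the largest fitted LHb minus MHb difference toward MHb. Its signals were 7.50, 7.59, 7.43 and 7.66 in LHb, 10.86, 11.21, 11.66 and 11.00 in MHb, 9.13, 8.64, 8.61 and 9.19 in Sol, and 10.50, 10.14, 10.72 and 10.16 in MVe. MHb was highest and LHb lowest, with neither overlapping another region. LHb minus MHb was -3.64 ± 0.20, 12.5-fold lower in LHb (adjusted p = 7.8e-11), and Sol minus MVe was -1.49 ± 0.20 (adjusted p = 8.5e-06). Because each area held a high and a low nucleus, habenula minus hindbrain was -0.27 ± 0.14 (adjusted p = 0.1418), which was called without the propofol array of Sol (-0.36, adjusted p = 0.0475). Kcng3 (Kv6.3) read 3.68, 4.11, 3.83 and 3.73 in LHb, 3.78, 4.35, 3.57 and 3.71 in MHb, 6.65, 6.85, 6.34 and 5.56 in Sol, and 3.40, 3.89, 3.87 and 3.98 in MVe. It was above the other regions in Sol alone, by 2.57 ± 0.20 (adjusted p = 1.7e-08) over MVe, and habenula minus hindbrain was -1.22 ± 0.14 (adjusted p = 1.8e-06). All 4 region means of Kcng3 lay in the background range. Kcnf1 (Kv5.1) had signals of 7.27, 8.48, 7.50 and 6.92 in LHb, 5.81, 5.97, 5.88 and 4.91 in MHb, 7.47, 6.75, 6.38 and 6.71 in Sol, and 5.79, 6.21, 5.94 and 5.44 in MVe. LHb and Sol overlapped at the top and MHb and MVe at the bottom, with LHb minus MHb at 1.90 ± 0.24 (adjusted p = 5.1e-06) and Sol minus MVe at 0.98 ± 0.24 (adjusted p = 0.0033). The MHb and MVe signals of Kcnf1 lay in the background range.

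The other modifiers spanned less between region means than Kcng4 and Kcng3. All 4 region means of Kcns3 and of Kcng1 lay in the background range, as did the Sol and MVe means of Kcns2. Kcns2 (Kv9.2) was higher in MHb, at 8.54, 7.80, 7.28 and 9.07, than in the other regions, whose arrays spanned 5.44 to 6.80. LHb minus MHb was -1.39 ± 0.28 (adjusted p = 8.5e-04) and habenula minus hindbrain was 1.5 ± 0.20 (adjusted p = 7.0e-06). Kcns3 (Kv9.3) read 4.78, 5.15, 5.06 and 4.78 in LHb, 4.80, 4.67, 4.06 and 4.51 in MHb, 4.90, 5.35, 5.77 and 5.51 in Sol, and 5.96, 6.42, 5.88 and 6.46 in MVe. MVe was highest without overlap, Sol minus MVe was -0.80 ± 0.20 (adjusted p = 0.0044) and habenula minus hindbrain was -1.06 ± 0.14 (adjusted p = 8.3e-06), and LHb minus MHb, 0.43 ± 0.20 and not called (adjusted p = 0.1304), was called without the sevoflurane array of MHb (0.62, adjusted p = 0.0311). Kcng1 (Kv6.1) had signals of 4.75, 5.76, 4.63 and 4.71 in LHb, 4.55, 4.68, 4.77 and 4.90 in MHb, 6.64, 6.52, 6.00 and 5.66 in Sol, and 5.58, 7.06, 4.95 and 5.25 in MVe. It was higher in the hindbrain, with habenula minus hindbrain at -1.11 ± 0.19 (adjusted p = 1.2e-04), and Sol minus MVe, 0.49 ± 0.27, was called only without the O2 array of MVe (0.82, adjusted p = 0.0136 against 0.1792 with all arrays) among the single arrays left out.

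Kcnv1 (Kv8.1) differed least among the called genes, with an F test adjusted p of 0.0248 and habenula minus hindbrain at -0.48 ± 0.14 (adjusted p = 0.0097). Its F test call was lost without the sevoflurane (adjusted p = 0.0567), O2 (0.1137) or Intralipos (0.0597) array of Sol. All 4 region means of Kcnv1 lay in the background range. Kcns1 (Kv9.1) stayed dim at 5.02, 4.46, 3.93 and 3.98 in LHb, 4.31, 4.16, 3.84 and 3.91 in MHb, 4.23, 4.0, 3.67 and 3.55 in Sol, and 4.59, 4.56, 3.91 and 3.63 in MVe, with all regions overlapping. Its F test adjusted p was 0.0588, and it was called without the Intralipos array of MHb (0.0464) or of MVe (0.0417). Kcng2 (Kv6.2) and Kcnv2 (Kv8.2, known from photoreceptors) were dim, with region means of 5.27 to 5.55 and 3.35 to 3.43, and were not called in any region comparison.

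Promoter windows show what the upstream sequence of some genes called between regions looks like. RefSeq start sites on GRCr8 gave 27 windows of 200 bases before the start for 25 of the 36 genes. The 5 windows below, each outside the RefSeq gene itself, belong to Kcnc1 (MVe highest and MHb lowest), Kcnd3, Kcnh5 and Kcnh8 (MHb highest) and Kcng3 (Sol highest). Letters are lower case, 5′ to 3′ on the strand of the gene, and capitals mark GC boxes, the letters GGGCGG on either strand, a motif bound by Sp1-family factors. The positions are Kcnc1 chr1:106039047-106039246, plus strand, Kcnd3 chr2:195626116-195626315, plus strand, Kcng3 chr6:16803642-16803841, plus strand, Kcnh5 chr6:99643857-99644056, minus strand, and Kcnh8 chr9:5742483-5742682, plus strand.
Kcnc1: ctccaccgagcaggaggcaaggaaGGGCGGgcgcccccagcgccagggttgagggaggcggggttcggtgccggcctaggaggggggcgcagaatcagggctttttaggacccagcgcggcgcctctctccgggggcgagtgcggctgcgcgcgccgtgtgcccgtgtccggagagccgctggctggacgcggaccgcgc
Kcnd3: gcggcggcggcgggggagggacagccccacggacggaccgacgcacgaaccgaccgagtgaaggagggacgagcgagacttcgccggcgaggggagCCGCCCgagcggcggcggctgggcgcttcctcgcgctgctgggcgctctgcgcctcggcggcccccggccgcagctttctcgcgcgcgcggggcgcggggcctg
Kcng3: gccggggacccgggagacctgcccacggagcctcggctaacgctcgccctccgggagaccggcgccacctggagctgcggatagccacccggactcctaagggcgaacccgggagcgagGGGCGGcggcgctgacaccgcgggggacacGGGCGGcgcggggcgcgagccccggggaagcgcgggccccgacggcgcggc
Kcnh5: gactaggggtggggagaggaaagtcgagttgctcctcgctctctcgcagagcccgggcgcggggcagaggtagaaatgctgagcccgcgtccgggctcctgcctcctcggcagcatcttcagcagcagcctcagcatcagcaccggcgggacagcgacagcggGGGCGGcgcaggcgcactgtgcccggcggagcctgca
Kcnh8: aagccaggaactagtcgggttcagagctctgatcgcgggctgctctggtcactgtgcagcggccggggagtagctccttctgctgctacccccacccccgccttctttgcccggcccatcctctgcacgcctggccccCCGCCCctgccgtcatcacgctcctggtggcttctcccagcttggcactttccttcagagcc

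All 5 windows are rich in G and C, at 75% in Kcnc1, 80% in Kcnd3 and Kcng3, 70% in Kcnh5 and 66% in Kcnh8. They hold 25, 37, 32, 19 and 11 CpG pairs in the same order, and each holds 1 GC box except Kcng3, which holds 2. Other windows outside their gene were not printed. Among them are those of Kcna6 (43% GC, no GC box) and Kcnf1 (58.5%, no GC box), and a window of Kcns3 (60%, 1 GC box). Over all 27 windows of the channel genes, 16 (59.3%) held GGGCGG on either strand, against 28.6% of 33469 RefSeq windows of the same length. Most of the 27, such as those of Kcna2, Kcna4, Kcna5, Kcnd2 and Kcng4, overlap the RefSeq gene rather than lying outside it. How often the windows of all genes do so was not tested. None of the 27 held TATAAA, TGACGTCA or ATGCAAAT on either strand, against 10.4%, 1.46% and 1.25% of all windows. The median GC content was 66% in the channel windows and 52% in all windows. Motifs of this kind were present at genes with opposite regional profiles, such as Kcnc1 and Kcnh8, and a match of letters does not show that a factor binds.

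Genes whose proteins assemble with or place these channels were described from 3 lists. Of 17 auxiliary subunits measured (18 listed), 13 were called by the F test, beside 54.1% of all genes. In LHb minus MHb 5 were higher and 4 lower, beside 28.5% of all genes called, in Sol minus MVe 3 higher and 7 lower, beside 35.2%, and in habenula minus hindbrain 3 higher and 7 lower, beside 38.1%. Kcnab1, Kcnab2 and Kcnab3 encode the cytoplasmic beta subunits of Kv1 channels. Sol minus MVe was -5.01 ± 0.20 for Kcnab3, -2.72 ± 0.16 for Kcnab2 and -1.36 ± 0.21 for Kcnab1 (adjusted p = 1.2e-12, 3.1e-10 and 5.6e-05), the same direction as Kcna1, Kcna2, Kcna4 and Kcna6. In LHb minus MHb, Kcnab2 was 2.64 ± 0.16 and Kcnab1 1.53 ± 0.21, both higher in LHb (adjusted p = 4.1e-10 and 1.7e-05), while Kcnab3 was lower there at -0.55 ± 0.20 (adjusted p = 0.0438). Against the hindbrain, the habenula was at -3.99 ± 0.15 for Kcnab1 and -2.69 ± 0.11 for Kcnab2 (adjusted p = 2.6e-13 and 1.4e-12). Kcnab3 was not called there (-0.11 ± 0.14, adjusted p = 0.5788). The Kv4 partners split: Kcnip1 was higher in MHb and in the habenula (LHb minus MHb -3.69 ± 0.20, habenula minus hindbrain 4.62 ± 0.14, adjusted p = 1.1e-10 and 1.6e-14), while Kcnip4 was higher in LHb (3.15 ± 0.19, adjusted p = 2.6e-10). Kcnip3 and Dpp6, also Kv4 partners, were higher in MHb than in LHb, at -1.68 ± 0.28 and -1.36 ± 0.16 (adjusted p = 1.1e-04 and 2.8e-06). Kcnip2 was higher in LHb, at 0.84 ± 0.21 (adjusted p = 0.0042), and Dpp10 was not called, at 0.42 ± 0.16 (adjusted p = 0.0619).

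Of 13 clustering and anchoring partners measured (15 listed), 12 were called by the F test, beside 54.1% of all genes. There were 3 higher and 3 lower in LHb minus MHb (beside 28.5%), 5 higher and 6 lower in Sol minus MVe (beside 35.2%), and 3 higher and 4 lower in habenula minus hindbrain (beside 38.1%). Dlg2, a scaffold that binds Kv1 channels, was higher in MHb than in LHb (-2.01 ± 0.15, adjusted p = 5.8e-09). Dlg1 of the same list was higher in LHb (1.10 ± 0.17, adjusted p = 4.3e-05). Cntnap1, the paranodal adhesion protein Caspr, was higher in MHb and in MVe (-1.46 ± 0.15 for LHb minus MHb and -1.01 ± 0.15 for Sol minus MVe, adjusted p = 3.6e-07 and 2.7e-05). Cntn2, a juxtaparanodal adhesion protein, was lower in Sol than in MVe (-1.33 ± 0.20, adjusted p = 4.5e-05), beside the oligodendrocyte markers given above. Lgi1 had the largest Sol minus MVe difference of this list, at 1.35 ± 0.15 (adjusted p = 1.2e-06).

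Of 10 calcium- and sodium-activated potassium channel genes measured (12 listed), 7 were called by the F test, beside 54.1% of all genes. There were 1 higher and 3 lower in LHb minus MHb (beside 28.5%), 4 higher and 2 lower in Sol minus MVe (beside 35.2%), and 4 higher and 1 lower in habenula minus hindbrain (beside 38.1%). Kcnma1, the BK channel, was higher in the habenula by 5.13 ± 0.11 and higher in MHb than in LHb (-3.10 ± 0.15), with adjusted p = 7.1e-17 and 2.4e-11. Its beta subunit Kcnmb4 was higher in the habenula by 4.47 ± 0.20 (adjusted p = 3.6e-12). Kcnn3, an SK channel, was higher in Sol than in MVe by 3.39 ± 0.16, and Kcnt2, a sodium-activated channel, by 3.11 ± 0.27 (adjusted p = 2.4e-11 and 5.2e-08).

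The anesthetics were compared each with its own control. For sevoflurane minus O2, 0 of the 36 channel genes passed the threshold, beside 0% of all genes, and 3 had an unadjusted p under 0.05, beside 4.99%. The median difference was 0.08 over the channel genes and 0.01 over all genes, with 21 of 36 above 0, and the median absolute difference was 0.15 beside 0.12. The 95% intervals of the 36 genes reached from -1.19 at the lowest bound to 0.95 at the highest. Kcnh6 had the smallest p among genes with a higher signal, at 0.52 ± 0.20 (interval 0.09 to 0.95, adjusted p = 0.9748), with 0.75 (LHb), -0.03 (MHb), 0.72 (Sol) and 0.63 (MVe). It was above O2 in 3 of 4 regions. Kcnc4 was above O2 in 4 of 4 regions, by 0.13 (LHb), 0.97 (MHb), 0.25 (Sol) and 0.15 (MVe), with a fitted 0.38 ± 0.17 (adjusted p = 0.9820) in which the MHb pair was the widest. Kcna1 (0.37 ± 0.19), Kcnc2 (0.31 ± 0.22) and Kcns1 (0.24 ± 0.15) came next, with adjusted p of 0.9820 for Kcna1 and 0.9885 for the others.

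Among genes with a lower signal under sevoflurane, Kcng1 came first at -0.62 ± 0.27 (interval -1.19 to -0.05, adjusted p = 0.9748). Its differences were -1.0 (LHb), -0.12 (MHb), 0.12 (Sol) and -1.48 (MVe), so LHb and MVe carried the value. Kcng3 was below O2 in 4 of 4 regions, at -0.43 (LHb), -0.57 (MHb), -0.20 (Sol) and -0.49 (MVe), with a fitted -0.42 ± 0.20 (adjusted p = 0.9820). Its signals in LHb, MHb and MVe lay in the background range. Kcns3 (-0.29 ± 0.20), Kcnq1 (-0.20 ± 0.15) and Kcnf1 (-0.27 ± 0.24) followed, each with an adjusted p of 0.9885. Of the genes named for sevoflurane, Kcnh6, Kcns1, Kcng3, Kcns3 and Kcnq1 were dim on every array. Kcng1 rose above the median of all gene values only on the O2 array of MVe. A sign shared by all 4 regions was seen for 4 channel genes (Kcnc4, Kcnd2 and Kcns1 above O2, Kcng3 below), beside 13.6% of all genes. The widest single pairs were -1.48 for Kcng1 in MVe, -1.21 for Kcnf1 in LHb and 1.07 for Kcnc2 in MVe, which have no replicate check. Oligodendrocyte markers were above O2 for 2 of 10 (median -0.22) and choroid plexus and ependyma markers for 3 of 11 (median -0.14), with 0 called in either list, and their part in these values was not tested.

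For propofol minus Intralipos, 0 of the 36 genes passed, beside 0.02% of all genes, and 5 had an unadjusted p under 0.05, beside 6.92%. The median difference was 0.05, beside 0.01 for all genes, with 21 of 36 above 0, and the intervals reached from -1.06 to 0.98. Kcna6 had the smallest p of the 36, at 0.54 ± 0.17 (interval 0.19 to 0.89, unadjusted p = 0.0045, adjusted p = 0.6400). It was above Intralipos in 4 of 4 regions, by 0.25 (LHb), 0.22 (MHb), 0.81 (Sol) and 0.88 (MVe). Kcnd3 was at 0.54 ± 0.21 and Kcnq5 at 0.48 ± 0.20, with adjusted p of 0.6525 and 0.6825. Kcnq5 was above Intralipos in 4 of 4 regions, by 0.74 (LHb), 0.02 (MHb), 0.54 (Sol) and 0.64 (MVe), and so was Kcna4, by 0.35 (LHb), 0.10 (MHb), 0.23 (Sol) and 0.49 (MVe). The fitted values of Kcna4 and Kcnf1 were 0.29 ± 0.16 and 0.43 ± 0.24 (adjusted p = 0.7659 and 0.7730).

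Toward lower signal under propofol, Kcna10 came first at -0.43 ± 0.15 (interval -0.75 to -0.11, adjusted p = 0.6461) and was below Intralipos in 4 of 4 regions, at -0.60 (LHb), -0.27 (MHb), -0.26 (Sol) and -0.59 (MVe). These are differences between dim signals. Kcnd1 was at -0.54 ± 0.25 (adjusted p = 0.7195), with 0.23 (LHb), -0.12 (MHb), -1.47 (Sol) and -0.78 (MVe), so the hindbrain pairs carried it. Kcnq1 (-0.26 ± 0.15), Kcnc4 (-0.26 ± 0.17) and Kcnh7 (-0.34 ± 0.27) followed, with adjusted p between 0.7946 and 0.8655. Kcnd1 and Kcnq1 were dim as well. A sign shared by all 4 regions was seen for 6 channel genes (Kcna4, Kcna6 and Kcnq5 above, Kcna10, Kcnh4 and Kcnq1 below), beside 15% of all genes. The widest single pairs were -1.79 for Kcns2 in MHb, -1.47 for Kcnd1 in Sol and 1.23 for Kcnd3 in Sol, again with no replicate check. Choroid plexus and ependyma markers were above Intralipos for 9 of 11, with a median of 0.47, and astrocyte markers for 0 of 9, with a median of -0.16. Neither list had a gene called, and their part in these values was not tested. The 3 lists of partner and related channel genes had 0 called in either anesthetic comparison.

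**Figure D4:**
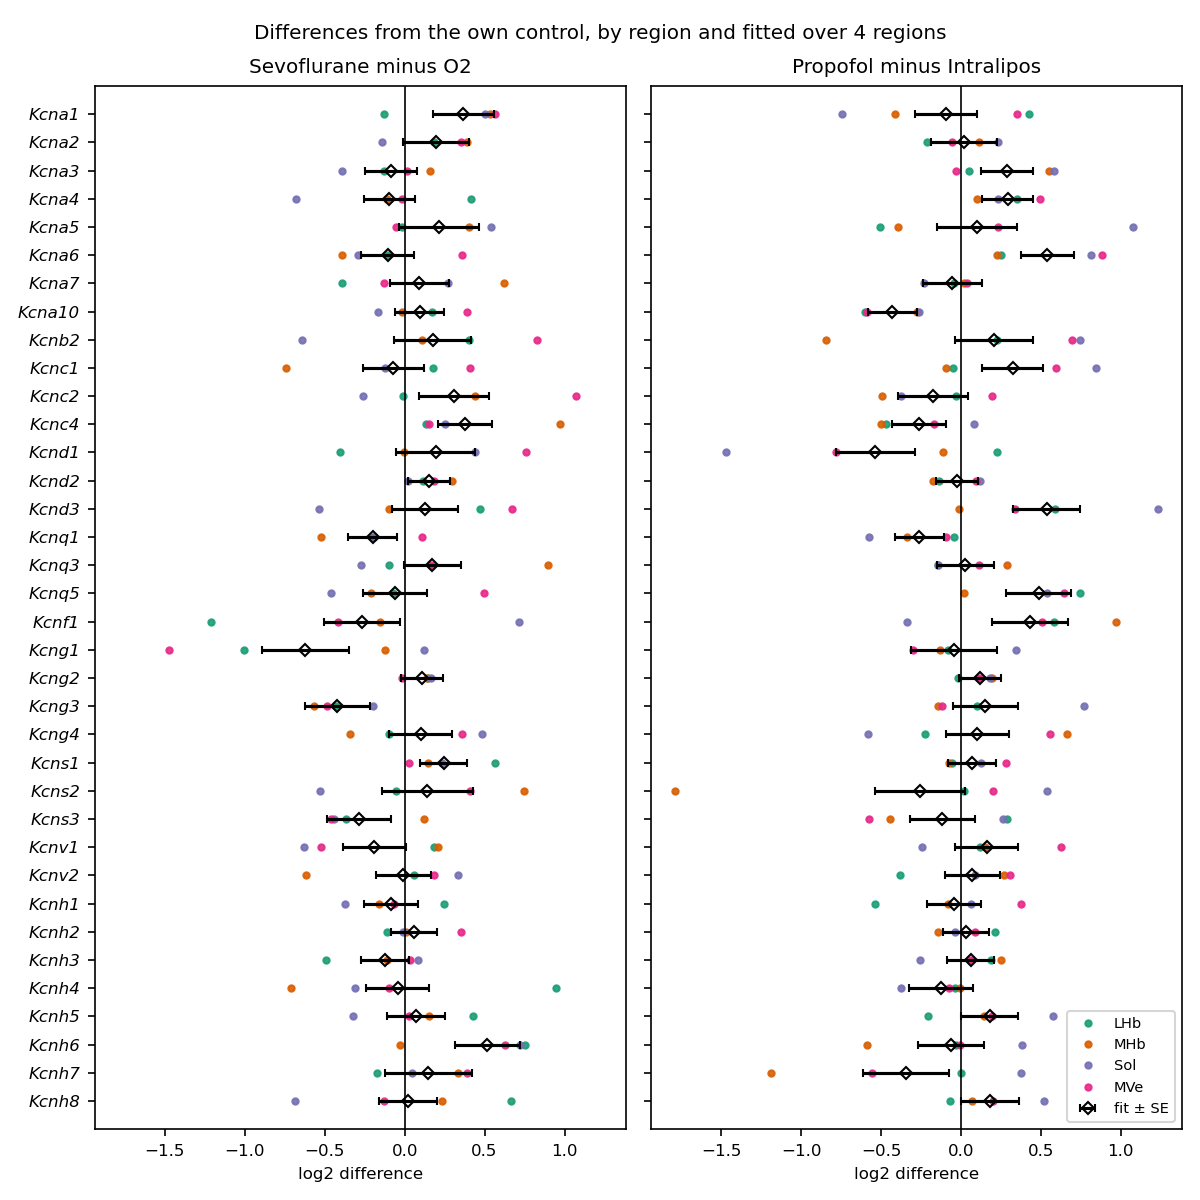
Differences within each region, sevoflurane minus O2 and propofol minus Intralipos, for the 36 channel genes. Coloured points are the 4 regions, with no replicate, and the open diamond with its bar is the fitted mean over regions with its moderated standard error. No gene passed the threshold, and fitted means stay between -0.62 and 0.54.

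Taken against each other, the sevoflurane effect and the propofol effect differed past the threshold for 0 of the 36 genes, beside 0.0133% of all genes, and 3 had an unadjusted p under 0.05, beside 5.01%. The largest differences toward sevoflurane by p were Kcnc4 (0.64 ± 0.24), Kcna10 (0.52 ± 0.22), Kcnd1 (0.73 ± 0.35), Kcnh6 (0.58 ± 0.29) and Kcna1 (0.46 ± 0.27), with adjusted p between 0.9460 and 0.9938. Those toward propofol were Kcna6 (-0.65 ± 0.23), Kcnf1 (-0.70 ± 0.34), Kcng3 (-0.57 ± 0.29), Kcnq5 (-0.55 ± 0.29) and Kcna4 (-0.39 ± 0.23), with adjusted p between 0.9460 and 0.9908. The intervals over the 36 genes reached from -1.41 to 1.47. Kcna10, Kcnd1, Kcnh6 and Kcng3 were dim genes.

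The anesthetic effects were also compared between the habenula and the hindbrain. For sevoflurane 0 of 36 genes passed, beside 0% of all genes, and 1 had an unadjusted p under 0.05, Kcnh8 at 0.86 ± 0.30 (adjusted p = 0.9264), beside 5.34%. For propofol 0 of 36 passed, beside 0%, and 5 had an unadjusted p under 0.05, beside 5.43%. These were Kcnd1 at 1.18 ± 0.38 (adjusted p = 0.8491), and Kcna5 at -1.10 ± 0.41, Kcns2 at -1.25 ± 0.49, Kcnb2 at -1.03 ± 0.45 and Kcnc1 at -0.79 ± 0.33, each with an adjusted p of 0.9176.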

How the data were processed

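The deposited table of the authors holds a log2 signal for every probe on each array. Per the submitters' processing notes these came from Affymetrix Expression Console, version 1.3.0. How probes were summarized and which build they refer to is not given in the sources used here, and the log2 scale was read from the values, so every fold rests on it. Of 24834 probes, 94 were controls, 15049 had 1 gene symbol, 0 had several and 9691 were unnamed here. The brightest probe of each gene was kept, which left 15037 genes. No filter and no further normalization were applied. Depth does not apply to arrays, and their number limits the precision.

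Region and treatment entered 1 linear model of the 16 arrays, fitted by limma (version 3.58.1, R 4.3.3, functions lmFit and eBayes) with two-sided tests on 9 residual degrees of freedom, and a fit with 6 residual degrees of freedom compared the anesthetic effects between areas. The p-values were adjusted by the Benjamini-Hochberg method over 15037 genes. Each single pairing of region and treatment had 1 array and no test. The named genes were every channel gene, with up to 10 per direction past the threshold in a region contrast. Where none passed, the 5 with the smallest p per direction were named. Some genes of each list were named as well, neither all that passed nor by size alone. The channel genes and the lists were chosen with earlier results of these data known. Alternatives were quantile normalization, median centring, a filter on dim genes, the mean over probes, trend and robust variance estimates, each array set alone, region within array set as a block, and each array left out in turn. The fits were tested on simulated arrays with known changes. Whether probes of related genes share signal was not tested. Promoter letters and gene order came from RefSeq on GRCr8. Descriptions used pandas 2.3.3 and numpy 2.4.6 in Python 3.11.15, and figures matplotlib 3.10.9.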

Additional observations from a re-analysis of the deposited data

Results flagged for a closer look

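Each region has 4 arrays, and for 12 of the 144 pairings of a channel gene with a region (8.33%) 1 array stood apart from the other 3 by more than the 95% critical value of Dixon's test, beside 4.4% of the 60148 such groups over all genes. Chance gives about 1 in 20 for like replicates, which these arrays of 4 treatments in 2 sets are not. The LHb O2 array and the MHb sevoflurane array stood apart for 2 genes each, and the other arrays listed here for 1 each. Among signals above the median of all gene values, Kcna4 in the MVe propofol array was high at 11.57, with the others at 11.03 to 11.08. Kcnq5 in the MHb sevoflurane array was low at 9.06, with the others at 9.27 to 9.29, and Kcnh7 in the Sol Intralipos array was low at 7.05, with the others at 7.40 to 7.44.

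The other 9 lay below the median of all gene values. Kcna5 in the LHb Intralipos array was high at 4.74 (others 4.19 to 4.23), the array whose omission moved its LHb minus MHb difference most. Kcna7 was high in the LHb O2 array at 4.37 (others 3.92 to 3.97) and in the MHb sevoflurane array at 4.66 (others 4.04 to 4.08). Kcnf1 in the MHb Intralipos array was low at 4.91 (others 5.81 to 5.97), and Kcng1 in the LHb O2 array was high at 5.76 (others 4.63 to 4.75). Kcnh6 was high in the LHb sevoflurane array at 5.52 (others 4.72 to 4.76), low in the MHb propofol array at 5.64 (others 6.17 to 6.23) and low in the MVe O2 array at 4.45 (others 5.02 to 5.07). Kcnv2 in the LHb propofol array was low at 3.12 (others 3.46 to 3.52). The LHb O2 array for Kcng1, and the LHb sevoflurane and MVe O2 arrays for Kcnh6, enter the sevoflurane minus O2 values given for these genes, neither of which passed the threshold. The MHb propofol array does not enter them. Other flagged arrays enter the propofol minus Intralipos values given above. These are the MHb Intralipos array for Kcnf1, the MVe propofol array for Kcna4 and the Sol Intralipos array for Kcnh7. Kcnf1 had its widest propofol pair in MHb, at 0.97, and Kcna4 in MVe, at 0.49. None of these genes passed the threshold in that comparison.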

How the results depend on the processing

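The count of channel genes called by the F test over regions ran from 25 to 28 over the alternatives run on all 36 genes, and was 22 of the 23 genes left after dim genes were dropped. LHb minus MHb gave 19 to 21 calls with 1 array left out, 16 in the sevoflurane and O2 arrays alone and 17 in the propofol and Intralipos arrays alone. Sol minus MVe gave 18 to 20, 17 and 15, and habenula minus hindbrain 22 to 23, 22 and 20. The share of all genes called also changes with the setting and is not set beside these counts. They therefore show how steady the channel calls were, not how channel genes compare with other genes. No region difference that passed the threshold changed its sign under any alternative run. Nor did the genes named by smallest p in the anesthetic comparisons and in their difference. Among region differences that were not called, Kcnd2 in Sol minus MVe did change sign. Its value was 0.1496, and median centring moved it by -0.1515. Both anesthetic comparisons, their difference and their comparison between areas had 0 channel genes called under every alternative run.

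Fits on an array set alone use fewer arrays, and some calls were lost in them. In LHb minus MHb these were Kcnq5 (-0.74, adjusted p = 0.0702), Kcnd3 (-0.73, 0.1194) and Kcnh5 (-0.57, 0.1200) in the sevoflurane and O2 set, Kcnb2 (-1.05, 0.0545) and Kcnh5 (-0.65, 0.0887) in the propofol and Intralipos set, and Kcna5 in both (0.0946 and 0.1449). In Sol minus MVe, Kcnc2 was lost in both sets, Kcnc4 (-0.60, 0.1070) in the first, and Kcnf1, Kcnh1, Kcnq3 and Kcns3 in the second, with adjusted p between 0.0565 and 0.2008. Kcnh6 and Kcnv1 were lost in habenula minus hindbrain in the second set (0.0745 and 0.1086). Median centring moved every LHb minus MHb value by -0.10 and every Sol minus MVe value by -0.15, and the other comparisons by less than 0.1. It ended the LHb minus MHb call of Kcna5 (0.60, adjusted p = 0.0730) and the F test call of Kcnv1 (0.0808), and it called Kcnd1, Kcng2 and Kcns1 in the F test. Calls were also gained. Median centring added Kcnd1 (adjusted p = 0.0198) and Kcnh3 (0.0373) in LHb minus MHb, Kcns1 (0.0284) in Sol minus MVe and Kcng2 (0.0308) in habenula minus hindbrain. Quantile normalization added Kcnd1 (0.0242) in LHb minus MHb, Kcng2 (0.0224) in habenula minus hindbrain, and both in the F test (0.0361 and 0.0486). Trend and robust variance estimates added Kcnd1 (0.0469) in LHb minus MHb, and the propofol and Intralipos set alone added Kcng1 (0.0429) in Sol minus MVe. Region, which each anesthetic shares with its control, was a term of the fit, so the anesthetic comparisons were already paired by region.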
